A study of Mus musculus with 4 samples.

Results

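The genes described here encode the histones that package newly made DNA: the core histones H2A, H2B, H3 and H4 and the linker histone H1. They were taken by gene symbol, as the current mouse names H1f0 to H1f5, H2ac, H2bc, H3c and H4c followed by a number. Of 65 annotated symbols of this form, 63 had a row in the table, out of 32812 genes with a symbol. By class, 6 were H1, 17 were H2A, 16 were H2B, 12 were H3 and 12 were H4 genes. In the positions the table gives, which are those of the mouse build GRCm38, 52 lay on chromosome 13, 10 on chromosome 3 and 1 on chromosome 15. The gene on chromosome 15 is H1f0, a linker histone made outside S phase from a polyadenylated message, which the name form also takes in. The other 62, which include the 5 linker histone genes H1f1 to H1f5, are called the core members below.

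The samples were mouse female germline stem cells of the C57BL/6 strain at a passage number above 20. The 2 control libraries and the 2 spermidine libraries, labelled SPD, were made 4 h into the experiment. Spermidine is a polyamine, and the labels give neither its dose nor the control's vehicle. No label ties the 2 libraries of a group to separate cultures, and the p-values therefore measure a spread between libraries that may be technical. In such bulk samples, fewer cells of a type and less RNA per cell cannot be told apart.

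Replication-dependent histone genes lie in clusters and are transcribed during S phase, when DNA is copied. Their messages have no introns and end in a short stem-loop in place of a poly(A) tail. The stem-loop binding protein, encoded by Slbp, and the U7 small nuclear ribonucleoprotein direct the cut that forms this end, and the messages are destroyed when DNA synthesis stops. Kits that isolate mRNA by its poly(A) tail, as the labels' protocol describes, are known to recover such messages poorly, and polyadenylated forms of some of them are known from other cells.

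The stem-loop is shown because it defines these messages. A pattern of 16 bases, GGNNNNTTNNNNNNCC in which the last 6 bases pair with the first 6, was searched on the transcript strand of GENCODE vM21. It was present in 39 of the 63 members, against 0.212% of 141767 transcripts. For 23 members it lay in the last 200 bases, against 0.0339% of transcripts. The 6 forms found are printed with the stem in capitals and the loop of 4 bases in lower case.
23 members of H1, H2A, H2B and H3: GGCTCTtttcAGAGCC
6 H4 members: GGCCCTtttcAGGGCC
5 H2B and H3 members: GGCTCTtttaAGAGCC
H4c9 and H4c14: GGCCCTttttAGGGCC
H4c2 and H4c11: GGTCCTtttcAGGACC
H2ac20: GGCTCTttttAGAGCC
The 10 H4 members with the pattern had stems that no member of another class had. Several annotated transcripts, H2bc18 and H4c12 among them, hold little beyond the coding part, so the absence of these letters says nothing of the message itself. In 16 members the annotated transcript continued for over 200 bases past the stem-loop.

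Promoters also separated the classes. In RefSeq windows of 300 bases on GRCm38, from 250 before to 50 after a start, the octamer ATTTGCAT was present on either strand in 7 of 14 H2B genes and 6 of 17 H2A genes. It was found in no H1, H3 or H4 member and in 1.97% of 27025 genes. CCAAT was present in 86.0% of the 57 core members with a window, against 41.1% of all genes, and in 3 of 11 H4 genes. TATAAA was present in 59.6% of the core members, against 15.7% of all genes. These motifs do not overlap in the windows printed, which are those of the member that passed the test described below, H2bc18, and of H4c4, an H4 gene with one of the highest levels in the first spermidine library. Capitals mark the octamer, CCAAT, its reverse complement ATTGG, and TATAAA.
H2bc18, plus strand, chr3:96269450-96269749: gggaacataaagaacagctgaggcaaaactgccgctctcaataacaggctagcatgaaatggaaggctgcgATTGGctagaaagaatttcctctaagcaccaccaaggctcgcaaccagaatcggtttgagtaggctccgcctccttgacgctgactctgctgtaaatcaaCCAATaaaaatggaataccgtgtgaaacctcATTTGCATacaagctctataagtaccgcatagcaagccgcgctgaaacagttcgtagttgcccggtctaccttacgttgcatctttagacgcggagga
H4c4, plus strand, chr13:23581318-23581617: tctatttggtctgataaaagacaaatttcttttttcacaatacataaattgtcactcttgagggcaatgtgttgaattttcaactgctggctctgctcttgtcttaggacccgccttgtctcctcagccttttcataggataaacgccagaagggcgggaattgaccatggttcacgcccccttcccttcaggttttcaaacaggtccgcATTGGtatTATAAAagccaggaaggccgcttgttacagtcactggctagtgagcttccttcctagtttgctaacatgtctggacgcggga
The data below are counts per gene and do not read these motifs.

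The libraries differed widely in depth and content. Total counts were 7206176 in control 1, 7128901 in control 2, 787600 in spermidine 1 and 1718944 in spermidine 2, where the number is the replicate. The 45S ribosomal row AY036118 took 1.68%, 1.64%, 29.6% and 30.7% of these, in that order. Levels are given as CPM, counts scaled to a library total of 1000000. Of 9 germline markers, 3, 4, 7 and 4 had counts, and they summed to 278, 267, 169 and 253 CPM. Most of that sum came from Tex19.1 in the controls, with 1955 and 1770 counts against 36 and 25 in spermidine, and from Ifitm3 with 72 counts in spermidine 1 and Dppa3 with 263 counts in spermidine 2. Nanos3 was at 0 in every library and Ddx4 had 1 count in all. Here and for the markers below, a value at or near 0 need not mean absence. Rows that share all their bases with other rows held almost no counts, and the markers' own bases are not given here. The 9 haematopoietic markers summed to 2510 and 1868 CPM in control but 350 and 139 CPM in spermidine, and Spi1 was at 0 throughout. The 7 granulosa markers, of which Amh was at 0 throughout, summed to 4.58, 6.59, 543 and 5185 CPM in the same order. The 7 oocyte markers, with Zp2 and Nlrp5 at 0 throughout, summed to 1.39, 2.38, 168 and 1717 CPM, and the 5 stroma markers to 42.7, 85.0, 1560 and 5912 CPM. Spermidine 1 also held reads on 1455 olfactory and vomeronasal receptor genes at 3.20 counts per kb, against 0.0597, 0.154 and 0.173 in control 1, control 2 and spermidine 2. The part of these differences in the histone values was not tested, except where a value below bears on it.

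Histone messages were a small part of every library and were most abundant in spermidine 1. The core members held 1390 of the counts in control 1, which is 0.0193% (exact Clopper-Pearson 95% interval 0.0183% to 0.0203%). They held 3072 counts in control 2, or 0.0431% (0.0416% to 0.0446%). In spermidine 1 they held 1307 counts, or 0.166% (0.157% to 0.175%), and in spermidine 2 they held 392 counts, or 0.0228% (0.0206% to 0.0252%). Intervals cover counting error only. Spermidine 1 stood above both controls, and spermidine 2 lay between them, so the groups overlapped.

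The mean share was 0.0312% ± 0.0168 (SD, n = 2) in control and 0.0944% ± 0.101 (SD, n = 2) in spermidine, a ratio of 3.03. The share in spermidine 1 was 7.28 times that in spermidine 2. Without spermidine 1 the ratio of spermidine to control was 0.731, and without spermidine 2 it was 5.32. No test was made of this sum, since 2 against 2 libraries cannot give a two-sided exact p below 0.333. With H1f0 included, all 63 members held 0.0456%, 0.0992%, 0.204% and 0.0902% of counts in control 1, control 2, spermidine 1 and spermidine 2, a ratio of 2.03.

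**Figure D1:**
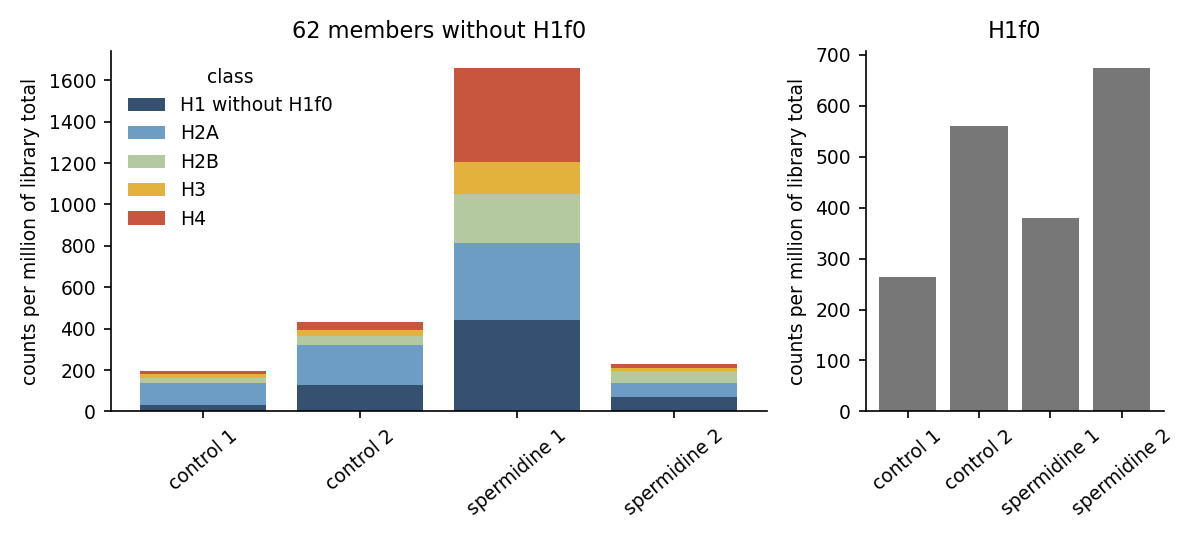
CPM held by the 62 core members, stacked by histone class (left), and by H1f0 (right), in each of the 4 libraries. Spermidine 1 holds 1659 CPM of core members against 193 to 431 CPM in the other libraries, while H1f0 is highest in spermidine 2.

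H1f0 followed another order. Its counts in control 1, control 2, spermidine 1 and spermidine 2 were 1899, 3998, 299 and 1159, which are 264, 561, 380 and 674 CPM. The spermidine 2 value was the highest and control 1 the lowest, with the others between them. The log2 fold change of H1f0 was 0.46 ± 0.63 (SE), with an adjusted p of 0.624 in edgeR's quasi-likelihood test.

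The excess in spermidine 1 was unequal among the classes. The share of H4 messages was 25.1 times as high in spermidine 1 as in spermidine 2, that of H3 was 10.4 times, H1 without H1f0 6.45 times, H2A 5.46 times and H2B 4.04 times. In spermidine 2, H1f2 held 90 of the 117 H1 counts without H1f0, and H2bc21 held 62 of the 100 H2B counts. The H1 and H2B ratios, and their place in this order, therefore depend on a single gene each. H4 genes made up 6.76% of the counts of all core members, H1 included, in control 1 (5.50% to 8.21%). The part was 8.30% in control 2 (7.35% to 9.33%) and 7.91% in spermidine 2 (5.44% to 11.04%). In spermidine 1 H4 genes made up 27.3% (24.9% to 29.8%). H4 therefore held a similar part of the core members' counts in 3 libraries and a larger one in spermidine 1, beyond the counting intervals.

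H2A took a larger part of the control counts. It made up 56.0% and 44.6% of the core members' counts in control 1 and control 2, 22.6% in spermidine 1 and 30.1% in spermidine 2. H2ac11, H2ac23 and H2ac24, grouped after their values were seen, held much of this. They held 626 of 778 H2A counts in control 1, 752 of 1369 in control 2, 70 of 295 in spermidine 1 and 84 of 118 in spermidine 2. The larger part in the controls was therefore not spread evenly over the class. Genes on chromosome 13 were 8.28 times as high in spermidine 1 as in spermidine 2, by share, and those on chromosome 3 were 4.23 times as high. H2bc21 alone held 62 of the 97 chromosome 3 counts in spermidine 2, so the chromosome 3 ratio depends on that gene.

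**Figure D2:**
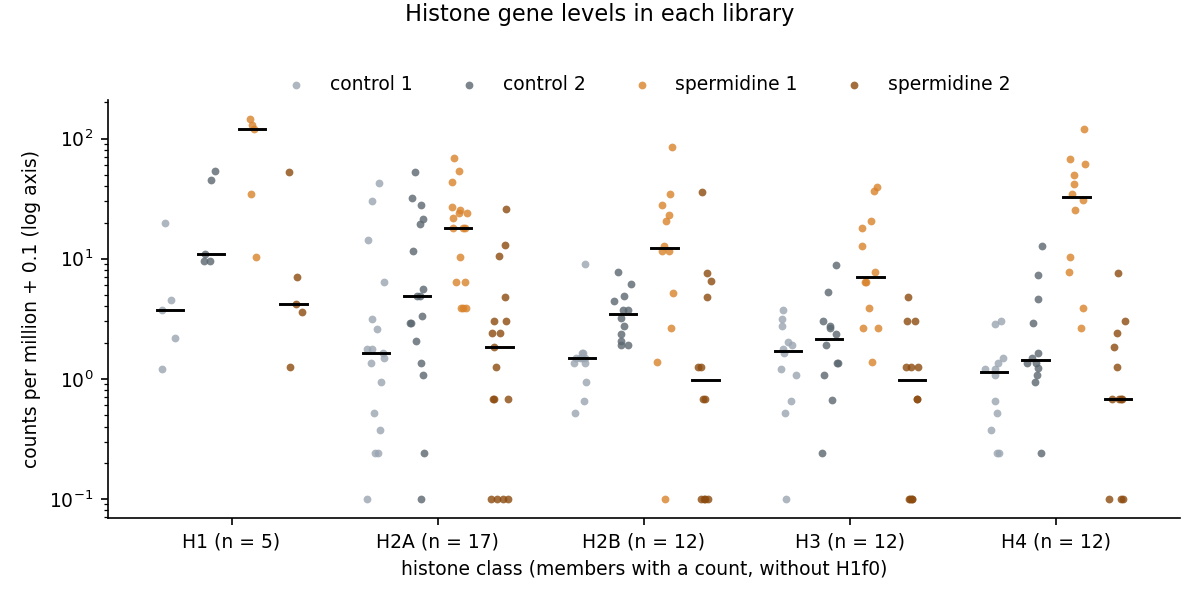
Each point is 1 core member with a count in some library, as CPM + 0.1 on a log axis, by histone class and library; black lines are medians. Points at the bottom of the axis are members with 0 counts, and the spermidine 1 medians (119 CPM for H1, 17.8 for H2A, 12.1 for H2B, 6.98 for H3 and 32.4 for H4) lie above those of the other libraries in every class.

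Most members shared the excess. Of the 58 core members with a count, 50 had their highest CPM in spermidine 1, against 69% of the 29023 genes with a count. In spermidine 1, 52 stood above both controls, against 73.5% of genes. In spermidine 2, 15 stood above both controls, against 27.6% of genes, and 30 stood below both, against 25.5%. The shallow depth of spermidine 1 gives 1 count a high CPM, which also bears on the genes at large. The 4 members at 0 in every library were H2bc1, H2bc6, H2bc22 and H2bc23, and 19 members were at 0 in spermidine 2 alone or with others. H2bc6 and H2bc22 have 30 and 265 bases that no other row covers. H2bc23 shares 100% of its windows of 150 bases with other genes. For H2bc6, H2bc22 and H2bc23, 0 counts therefore do not show that the message was absent.

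The receptor reads gave a level to set beside these counts. At the receptor rate per kb, the core members would have held 108 counts in spermidine 1, where 1307 were observed, 12.1 times as many. The same comparison gave 686, 589 and 66.9 times in control 1, control 2 and spermidine 2. In spermidine 1, 54 of the 62 core members were above the receptor rate.

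The ranks of the members were closest between the controls. Over the 58 core members with a count, Spearman's rho of CPM was 0.72 between control 1 and control 2 and 0.18 between spermidine 1 and spermidine 2. Spermidine 2 had a rho of 0.55 with control 1 and 0.50 with control 2, and spermidine 1 had 0.29 and 0.35. These are descriptions over genes of the same libraries, and 19 of the 63 members had 0 counts in spermidine 2.

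Across all genes, 7836 passed edgeR's filter on low counts, 2.26 CPM in at least 2 libraries. This minimum is 10 counts at the median library total, and in the shallow spermidine 1 it is reached by 2 counts. At a Benjamini-Hochberg adjusted p under 0.05, the quasi-likelihood test of edgeR called 28.8% of the 7836 genes, 24.8% higher in spermidine and 3.99% lower. Of the 63 histone members, 36 passed the filter. Among these, 16 passed it in both controls, 17 in 1 control and 3, H2ac19, H2bc4 and H3c13, through the spermidine libraries alone. The 17 also needed at least 1 spermidine library over the minimum, so their passing rested in part on spermidine values. H2bc18, which is among the 17, was the 1 member called higher and 0 were called lower. At an unadjusted p under 0.05 there were 5 members, all higher, which is 13.9% of the 36, beside 39.7% of all tested genes, or 29.5% counting higher genes alone. DESeq2 called 2 members, H1f1 and H2bc18, and 28% of all genes, and limma-voom called 0 members and 24.9% of all genes. The older form of edgeR's test also called 0 members, and 24% of all genes.

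The member called, H2bc18, encodes an H2B histone and lies on chromosome 3 at chr3:96269700-96270192, plus strand, as a single row without introns. It had 10 counts in control 1, 34 in control 2, 67 in spermidine 1 and 13 in spermidine 2, which are 1.39, 4.77, 85.1 and 7.56 CPM. Both spermidine libraries were above both controls, and spermidine 1 stood far above spermidine 2. Its log2 fold change was 3.66 ± 1.08 (SE), with an adjusted p of 0.0343 in edgeR's quasi-likelihood test. The adjusted p was 0.0549 with the older form of the same edgeR test, 0.348 without spermidine 1 and 0.245 without control 1, so the call depends on these choices. In GENCODE, all windows of 150 bases of H2bc18 are also covered by another gene at the same place, either an antisense gene or a long noncoding RNA on its strand. The counts make no use of strand, so reads of these RNAs cannot be told apart from those of H2bc18.

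Other tested H2B genes varied in their order. H2bc21, whose transcript is long for a histone gene and shares no window with another gene, had 64, 55, 16 and 62 counts in control 1, control 2, spermidine 1 and spermidine 2, or 8.88, 7.72, 20.3 and 36.1 CPM. Both spermidine libraries were above the controls and spermidine 2 was the higher of them, unlike most members. The fitted log2 fold change was 1.90 ± 0.73 (SE), with an adjusted p of 0.0858 in edgeR's quasi-likelihood test. H2bc4 had 1.53, 1.82, 5.08 and 4.65 CPM from 11, 13, 4 and 8 counts, with a close pair of values in each group. It passed the filter on low counts through the spermidine libraries alone and so had to be higher there. H2bc11 had 0.833, 3.65, 11.4 and 6.40 CPM. The 7 tested H2B members had a median log2 fold change of 1.90, which was 1.53 without spermidine 1 and 2.24 without spermidine 2.

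H1 linker histones sit on the DNA between nucleosomes. H1f1 had 26, 67, 115 and 6 counts, or 3.61, 9.40, 146 and 3.49 CPM, in control 1, control 2, spermidine 1 and spermidine 2. Spermidine 1 was the highest and spermidine 2 the lowest, so the groups overlapped. Its log2 fold change was 3.26 ± 1.20 (SE), with an adjusted p of 0.0741 in edgeR's quasi-likelihood test, and it was -0.65 without spermidine 1. H1f2, the core member with the most counts in spermidine 2, had 141, 324, 102 and 90 counts, or 19.6, 45.4, 130 and 52.4 CPM. Both spermidine libraries were above both controls, with spermidine 2 close to control 2. On the log2 scale the fold change of H1f2 was 1.41 ± 0.65 (SE), with an adjusted p of 0.143 in edgeR's quasi-likelihood test.

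The remaining H1 genes varied widely between the controls. H1f4 had 4.44 CPM in control 1 and 53.9 in control 2, from 32 and 384 counts, and 119 and 6.98 CPM in spermidine 1 and spermidine 2. H1f3 had 2.08, 10.8, 34.3 and 4.07 CPM, and H1f5 had 1.11, 9.54, 10.2 and 1.16 CPM. In each of these genes control 2 and spermidine 1 were the high libraries and control 1 and spermidine 2 the low ones.

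H4 genes had the lowest median level of the 5 classes in each control, 1.04 and 1.33 CPM, beside 32.4 CPM in spermidine 1. All 12 H4 members were above both controls in spermidine 1, and 4 were above both in spermidine 2. H4c4 had 21, 91, 94 and 4 counts, or 2.91, 12.8, 119 and 2.33 CPM. Spermidine 1 was the highest and spermidine 2 the lowest. H4c4 shares no window of 150 bases with another gene. H4c9 had 20, 20, 33 and 5 counts, or 2.78, 2.81, 41.9 and 2.91 CPM, so its values agreed in 3 libraries. H4c12 was the H4 gene with like values in the spermidine libraries, at 7.62 and 7.56 CPM, against 1.11 and 4.49 CPM in the controls. None of the 4 tested H4 members passed edgeR's quasi-likelihood test, and their median log2 fold change was 2.45, which was -0.60 without spermidine 1 and 3.62 without spermidine 2.

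H3 genes were low in most libraries. H3c6 had 12, 21, 31 and 2 counts, or 1.67, 2.95, 39.4 and 1.16 CPM. H3c13 had 1.94, 1.26, 7.62 and 4.65 CPM, with both spermidine libraries above both controls. As it passed the filter on low counts through the spermidine libraries alone, it had to be higher there. H3c3 went the other way, with 26, 62, 2 and 1 counts, or 3.61, 8.70, 2.54 and 0.582 CPM, and both spermidine libraries were below both controls. On the log2 scale H3c3 differed by -2.23 ± 1.19 (SE), with an adjusted p of 0.189 in edgeR's quasi-likelihood test. No H3 member passed that test.

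H2A included H2ac24, the core member with the most counts over the 4 libraries. H2ac24 had 304, 373, 14 and 44 counts, or 42.2, 52.3, 17.8 and 25.6 CPM, in control 1, control 2, spermidine 1 and spermidine 2. Both spermidine libraries were below both controls. The log2 fold change of H2ac24 was -1.0 ± 0.65 (SE), with an adjusted p of 0.282 in edgeR's quasi-likelihood test. H2ac11 had 30.4, 31.8, 53.3 and 12.8 CPM, and H2ac23 had 14.3, 21.3, 17.8 and 10.5 CPM. H2ac11, H2ac23 and H2ac24, which were grouped after their values were seen, held 626, 752, 70 and 84 counts together, and their share had a spermidine to control ratio of 0.716. They share 65.5%, 91.5% and 91.0% of their windows of 150 bases with other genes, so counts may be split or lost among near-identical copies.

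Several other H2A genes, though not all, were higher in control 2 and spermidine 1 than in control 1 and spermidine 2. H2ac19 instead had both spermidine libraries above both controls, at 0.833, 1.96, 3.81 and 2.91 CPM. This gene passed the filter on low counts through the spermidine libraries alone and so had to be higher there. H2ac10 had 6.24, 27.6, 68.6 and 4.65 CPM, and H2ac15 had 2.50, 19.2, 21.6 and 2.33 CPM. H2ac4 had 1.39, 4.77, 43.2 and 0.582 CPM, from 10, 34, 34 and 1 counts. H2ac13 and H2ac6 had 25.4 and 24.1 CPM in spermidine 1 and 0 counts in spermidine 2. The 13 tested H2A members had a median log2 fold change of 0.41, and no H2A member passed edgeR's quasi-likelihood test.

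Over the 36 tested members, 28 had a log2 fold change above 0 and 8 below, against 54.3% of all tested genes above 0. Their median was 1.35, beside 0.23 over all tested genes. Without the filter on low counts the order was reversed, with a median of 1.12 over the members with a count beside 3.56 over all genes with one. On the scaled log2 CPM, the groups did not overlap in 13 members, 11 with both spermidine libraries higher (36.6% of all tested genes) and 2 with both lower (29.6%). The other 23 overlapped. The members that passed the filter through the spermidine libraries alone had to be higher there. Those that passed in 1 control needed a spermidine library over the minimum too. The counts above and below 0 and the median are therefore not free of the filter.

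**Figure D3:**
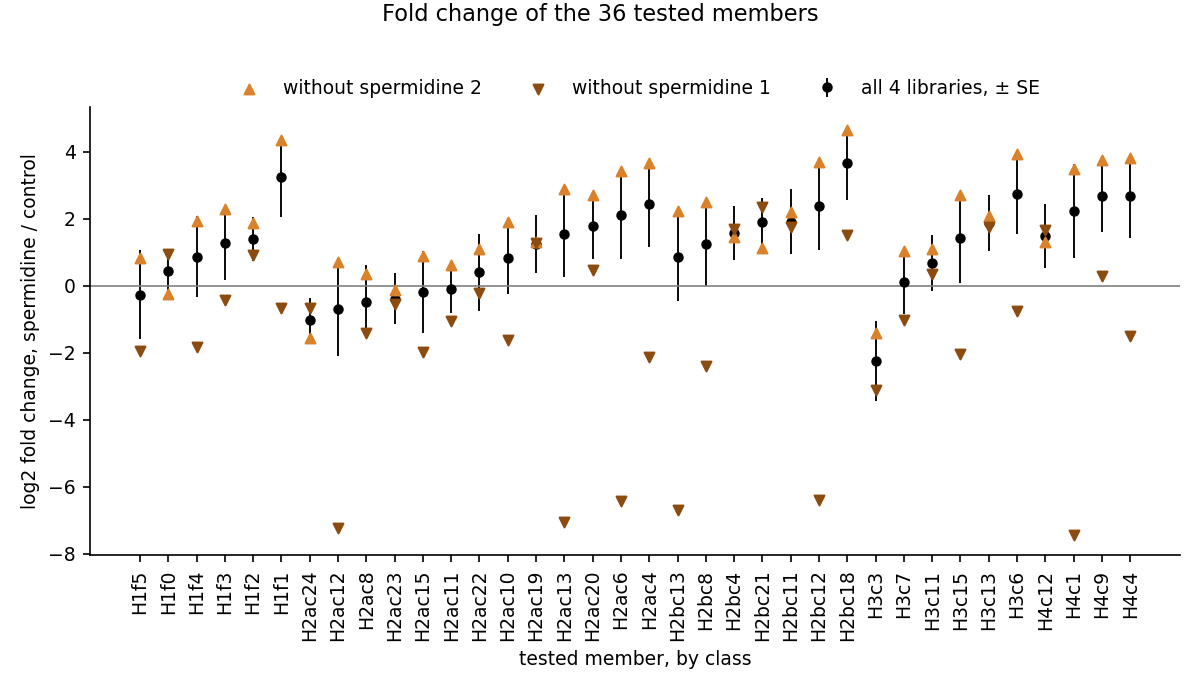
Log2 fold change (spermidine over control) of the 36 tested members by class, with all 4 libraries (black, bars are ± 1 SE from edgeR), without spermidine 2 (upward triangles) and without spermidine 1 (downward triangles). Without spermidine 2, 32 members lie above 0, and without spermidine 1, 24 lie below 0; the values below -6 belong to members with 0 counts in spermidine 2, and their size depends on the fit.

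The direction of most members rested on which spermidine library was used. Without spermidine 2, edgeR's quasi-likelihood test called 16 of the 36 members higher and 0 lower, against 32.1% of all genes called higher, and the median log2 fold change was 1.93, beside 0.40 over all tested genes. Without spermidine 1, it called 0 of the 36, with 1 at an unadjusted p under 0.05, against 6.18% of all genes called, and the median was -0.87, beside 0.00 over all tested genes. In those fits the lone spermidine library is assumed to vary as the controls do. The members above 0 in both fits were the 11 with both spermidine libraries above the controls on the scaled log2 CPM. They were H1f2, H2ac19, H2ac20, H2bc4, H2bc11, H2bc18, H2bc21, H3c11, H3c13, H4c9 and H4c12. Of these, H2ac20 had 2.91 CPM in spermidine 2 and 3.23 CPM in control 2, so its groups overlapped before TMM scaling. H2ac19, H2bc4 and H3c13 passed the filter on low counts through the spermidine libraries alone and so had to be higher there. H2ac23, H2ac24 and H3c3 were below 0 in both fits. Without control 2 the test called 1 member, H2bc18, and 19.3% of all genes. Without control 1 it called 0 members and 0% of all genes, with 0 members and 1926 genes at an unadjusted p under 0.05, so no call given here stands without control 1.

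Most histone members differed between replicates in the same direction. In spermidine 1, 30 of the 36 were higher than in spermidine 2 on the scaled log2 CPM, against 52.1% of all tested genes, with a median difference of 2.42 beside 0.09. In control 2, 31 of 36 were higher than in control 1, against 47.4% of all tested genes, with a median difference of 1.25 beside 0.00. Without regard to sign, the median difference was 2.42 for members and 1.20 for all tested genes between the spermidine libraries, and 1.25 and 0.39 between the controls. The controls had similar depth. The median log2 fold change of 1.35 between the groups was close to this difference within the control group.

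Genes of the machinery around histone supply were read from lists chosen by known function. Of 41 S phase genes of DNA replication and nucleotide supply, 23 were tested, with a median log2 fold change of -1.05. Of these, 0 were called higher, beside 24.8% of all tested genes, and 2 lower (8.7%), beside 3.99%. The 2 were Rrm2, which encodes a subunit of ribonucleotide reductase, with 1328, 941, 116 and 127 CPM, and Mcm3, which encodes a subunit of the replicative helicase, with 1164, 1226, 345 and 384 CPM. In both genes each spermidine library lay below both controls, and the spermidine libraries were close to each other. Their log2 fold changes were -3.18 ± 0.58 (SE) and -1.66 ± 0.54 (SE), with adjusted p of 0.00737 and 0.0490 in edgeR's quasi-likelihood test. The test called 16 of the 23 lower without spermidine 2 and 0 without spermidine 1, where 7 were lower at an unadjusted p under 0.05. Of all tested genes, 15.4% were called lower without spermidine 2 and 0.408% without spermidine 1, where 14.7% were lower at an unadjusted p under 0.05. The summed share of the S phase list was 0.785% in control 1, 0.704% in control 2, 0.210% in spermidine 1 and 0.293% in spermidine 2. The share in spermidine 1 was 0.717 of that in spermidine 2, where the core members gave 7.28.

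Regulators of histone gene transcription included 1 call. Of 16, 7 were tested, 0 were called higher and 1 lower (14.3%), beside 24.8% and 3.99% of all tested genes. The gene called was Ccne1, which encodes cyclin E1, the partner of the kinase that acts on the histone gene activator NPAT. Ccne1 had 229, 206, 30.5 and 13.96 CPM, and both spermidine libraries were far below the controls. Its log2 fold change was -3.38 ± 0.61 (SE), with an adjusted p of 0.00710 in edgeR's quasi-likelihood test. Npat had 12, 13, 16 and 11 counts, with a log2 fold change of 2.75 ± 0.90 (SE) and an adjusted p of 0.0502 in edgeR's quasi-likelihood test, so it was not called. It passed the filter on low counts through the spermidine libraries alone and so had to be higher there. Hinfp, an activator of H4 genes, had at most 3 counts in a library, and Casp8ap2 had 6 bases of its own and 0 counts.

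Processing and decay of the histone 3′ end showed no call. Of 21 genes, 9 were tested, with a median log2 fold change of -0.83. None was called, with 0 at an unadjusted p under 0.05, by edgeR, DESeq2 or limma-voom. Of all tested genes, these called 28.8%, 28% and 24.9%. Without spermidine 2, edgeR called 2 of the 9 lower (22.2%), beside 15.4% of all tested genes. Slbp could not be read, since its rows share all their bases and hold no base of their own. Lsm1, Eri1 and Cstf2t were the 3 with the smallest p. Lsm1 had 66.9, 49.2, 10.2 and 26.2 CPM, Eri1, a nuclease that trims the histone stem-loop end, had 252, 231, 113 and 145 CPM, and Cstf2t had 129, 233, 107 and 91.9 CPM. All had both spermidine libraries below both controls.

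Histone chaperones carry histones to and from DNA. Of 26, 16 were tested, 0 were called higher and 1 lower (6.25%), beside 24.8% and 3.99% of all tested genes. Their median log2 fold change was -1.03, which was -0.73 without spermidine 1 and -1.15 without spermidine 2. Asf1b, an H3-H4 chaperone, had 214, 201, 62.2 and 54.1 CPM and fell, with a log2 fold change of -1.81 ± 0.53 (SE) and an adjusted p of 0.0314 in edgeR's quasi-likelihood test. Cabin1 had 14.2, 10.4, 3.81 and 1.16 CPM and Npm1 had 150, 111, 31.7 and 54.1 CPM, and neither was called.

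Replication-independent variants, most of whose messages are polyadenylated, included 2 calls. Of 13, 6 were tested and 2 were called higher (33.3%, beside 24.8% of all tested genes), with a median log2 fold change of -0.31. H1f10 had 1.67, 4.63, 45.7 and 261 CPM, with a log2 fold change of 5.80 ± 1.07 (SE) and an adjusted p of 0.00737 in edgeR's quasi-likelihood test. Macroh2a2 had 1, 1, 2 and 19 counts and a log2 fold change of 5.65 ± 1.15 (SE), with an adjusted p of 0.00749 in edgeR's quasi-likelihood test. Macroh2a2 passed the filter on low counts through the spermidine libraries alone, at 2.54 and 11.1 CPM against a minimum of 2.26, so it had to be higher there. In both genes spermidine 2 was the highest library, as it was for the summed granulosa markers, and the part of other cells in these values was not tested. H3f3a had 602, 429, 212 and 541 CPM, and H2ax had 289, 370, 183 and 290 CPM. H2aj had 244, 288, 118 and 195 CPM, and Cenpa had 19, 4, 3 and 0 counts, and none of these passed the test. H3f3b had 10, 7, 0 and 1 counts, and H2az1 had 21, 11, 1 and 0. H2az1 had 69 bases of its own and Cenpa 62, so little of either gene could be read. H3f3b had 2 rows and 690 bases of its own, and reads over several rows appear to have been left out. Its counts therefore need not show a low level.

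Of 18 other RNAs without a poly(A) tail, 8 were tested, and each of the 8 was higher in both spermidine libraries than in both controls. The same held for 36.6% of all tested genes. Rny3 and Rnu11 passed the filter on low counts through the spermidine libraries alone and so had to be higher there. The test called 6 of the 8 higher (75%, beside 24.8% of all tested genes), Rnu11 among them, and the median log2 fold change was 4.63. Without spermidine 1 the test called 0 of the 8, with 3 at an unadjusted p under 0.05 (37.5%), all higher. Of all tested genes, 5.77% were called higher without spermidine 1, and 41.4% had an unadjusted p under 0.05, or 26.7% counting higher genes alone. Rn7sk, the 7SK RNA that holds back transcription elongation, had 462, 77.0, 6022 and 5693 CPM. On the log2 scale the difference was 4.46 ± 0.96 (SE), with an adjusted p of 0.00880 in edgeR's quasi-likelihood test. Its share in spermidine 1 was 1.06 times that in spermidine 2, and that of AY036118 was 0.963 times. Rpph1 and Rmrp, both called higher, had spermidine libraries far apart. Rpph1 had 48.4, 40.7, 4968 and 153 CPM, and Rmrp had 27.2, 7.01, 1414 and 53.5 CPM. Rn7s1 and Rn7s2 were instead higher in spermidine 2, at 743 and 3076 CPM and at 2993 and 4685 CPM in the spermidine libraries. For the summed list the share in spermidine 1 was 1.27 times that in spermidine 2. Rnu1a1, a U1 RNA of the spliceosome, had 36.2, 5.33, 1340 and 267 CPM. In Rn7sk and Rnu1a1 control 1 was above control 2, the reverse of most histone members.

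**Figure D4:**
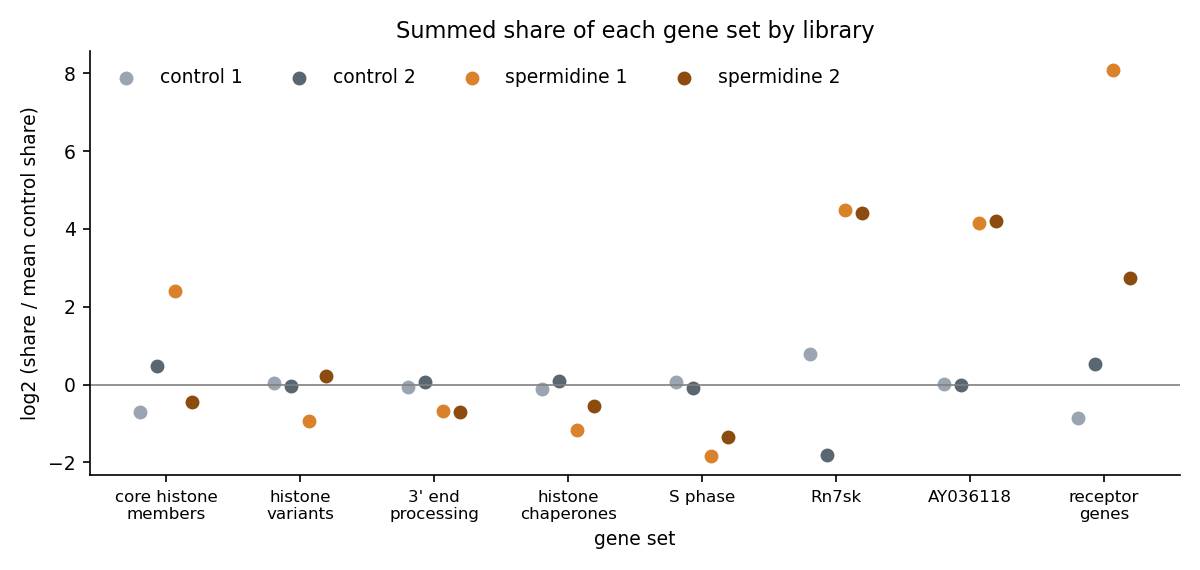
Log2 of each library's summed share of counts over the mean control share, for the core members and for other gene sets and RNAs. The spermidine points lie together for 3′ processing genes, Rn7sk and AY036118, and apart for the core members (7.28 times) and receptor genes (40.4 times, spermidine 1 over spermidine 2). For histone variants, histone chaperones and S phase genes spermidine 1 lies below spermidine 2, at 0.451, 0.655 and 0.717 times.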

How the data were processed

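RNA was measured in 2 control and 2 spermidine libraries. Per the labels' protocols, DNase treatment and mRNA isolation came before paired-end sequencing at 150 bases a read, and a pair of library kits is named. HISAT2, DESeq2 and mm9 appear in the submitters' processing notes, without roles or versions. A counting program, not given in the sources used here, made the raw whole-number counts that the authors deposited for 106519 RefSeq transcript rows. Of these, 86040 (80.8%) matched a symbol in NCBI's RefSeq gene table for GRCm38.p6. Positions are given as GRCm38, since 88.5% of matched rows fell within the GRCm38 span of their gene. Rows of a gene were summed to 53291 features. In no library did the 49975 rows that lack a base of their own take over 0.0014% of counts, so reads over several rows appear to have been left out, whatever their strand.

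Counts were scaled by TMM, filtered with filterByExpr (count minimum 10, total minimum 15) and tested with edgeR 4.0.16 in R 4.3.3 (estimateDisp, glmQLFit with legacy = FALSE, glmQLFTest), with the group as the only term, 2 residual degrees of freedom and Benjamini-Hochberg adjustment over 7836 genes. Both the newer and the older (legacy) form of that test had been run when the newer was taken as the main one, because it gave the same number of calls as an earlier analysis of these data. The older form calls no histone member, so the single call rests on this choice. SE is the absolute log2 fold change divided by the square root of F. CPM in the text are counts scaled to a library total of 1000000, and scaled log2 CPM use TMM with a prior count of 2. DESeq2 1.42.0 and limma 3.58.1 were alternatives. The procedure was tested on simulated data. The rule for named genes took every tested member, the 3 genes with the smallest p in each other list and a set of named regulators, and not all are printed. Rmrp, Rpph1, Rn7s1 and Rn7s2 are printed outside this rule, after their values were seen. Members and lists were chosen with earlier results of these data known. Subtraction of the receptor background and the older edgeR test were added after seeing the data. Same-numbered libraries were not treated as pairs: no label ties them.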

Additional observations from a re-analysis of the deposited data

How the results depend on the processing

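The number of histone members called was 1 with RLE or upper-quartile scaling, without AY036118, after subtraction of the receptor background and with transcript rows as features. It was 0 with library totals only, without the filter on low counts, with at least 1 CPM in all libraries, with thinned controls, with the older edgeR test and with limma-voom, and 2 with DESeq2. With the replicate number as a block (replicate block) it was 0. The replicate numbers are not shown to pair the libraries: same-numbered deviations correlated at -0.0299 across genes. Leaving out 1 library gave 0 to 16. Over the other lists, 12 genes were called, 0 without the filter on low counts, and 0 to 36 on leaving out 1 library. Alternatives were not run on the choice of annotation.

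The share of all members had a spermidine to control ratio of 2.03, which was 3.30 over counts of protein-coding genes and 1.25 to 3.22 on leaving out 1 library. Without H1f0 the ratio ran from 0.731 to 5.32 on leaving out 1 library. The median log2 fold change of tested members ran from -0.87 to 2.28 on leaving out 1 library and stayed above 0 in the other settings run. Upper-quartile scaling moved the median of all genes by 0.14, where members stood 1.21 above it. Without the filter on low counts the members' median minus that of all genes was -2.44.

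Leaving out 1 library carried the log2 fold change of 25 named genes across 0, and the values below -6 belong to genes with 0 counts in spermidine 2. For H1 genes the ranges were -0.24 to 1.09 for H1f0, -0.65 to 4.36 for H1f1, -0.42 to 2.93 for H1f3, -1.81 to 3.59 for H1f4 and -1.93 to 1.98 for H1f5. For H2A genes they were -1.62 to 2.30 for H2ac10, -1.04 to 0.63 for H2ac11, -7.24 to 0.71 for H2ac12, -7.06 to 2.88 for H2ac13 and -1.97 to 1.95 for H2ac15. They were -0.29 to 2.26 for H2ac22, -2.12 to 3.68 for H2ac4, -6.43 to 3.43 for H2ac6 and -1.39 to 0.79 for H2ac8. For H2B genes they were -6.38 to 3.69 for H2bc12, -6.70 to 2.24 for H2bc13 and -2.39 to 2.68 for H2bc8. For H3 genes they were -2.02 to 3.77 for H3c15, -0.74 to 3.95 for H3c6 and -1.01 to 1.03 for H3c7. For H4 genes they were -7.42 to 4.30 for H4c1 and -1.50 to 4.11 for H4c4. Among variants they were -6.10 to 1.26 for Cenpa, -0.99 to 0.06 for H2ax and -1.44 to 0.31 for H3f3a.

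Other settings turned the sign of 8 genes with values near 0, and the cause was not tested. H1f5 was 0.17 with at least 1 CPM in all libraries, 0.07 with the replicate block, 0.59 with thinned controls, 0.01 with DESeq2 and 0.31 with limma-voom. H2ac11 was 0.14 with upper-quartile scaling, 0.08 with library totals only, 0.37 with at least 1 CPM, 0.38 with thinned controls, 0.24 after background subtraction and 0.02 with DESeq2. H2ac15 was 0.04 with upper-quartile scaling, 0.29 with at least 1 CPM, 0.21 with the replicate block, 0.06 with thinned controls, 0.02 after background subtraction, 0.07 with DESeq2 and 0.05 with limma-voom. Without the filter on low counts H2ac22 was -0.06 and H3c7 was -0.37, and H3c7 was -0.44 after background subtraction. With at least 1 CPM in all libraries H2ac23 was 0.01 and H3f3a was 0.00. With thinned controls H2ax was 0.09 and H3f3a was 0.12. Of the 63 members, 6 had 0 counts in control 1, 5 in control 2, 5 in spermidine 1 and 19 in spermidine 2, which is not the shallowest library.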

Other observations

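A few histone genes outside the name form used here had former names of the same clusters. H4f16, formerly Hist4h4, an H4 gene on chromosome 6, had 3, 16, 48 and 3 counts in control 1, control 2, spermidine 1 and spermidine 2. H2bu2, formerly Hist3h2ba, had 2, 2, 10 and 2 counts. H2af-ps2, formerly Hist1h2al, had 1, 1, 75 and 8 counts. In all 3 genes spermidine 1 had the most counts although it is the shallowest library. H2bu1-ps, formerly Hist3h2bb, had 2, 6, 0 and 1 counts.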
